A study of Homo sapiens with 6 samples.

Results

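The serum amyloid A (SAA) genes SAA1, SAA2 and SAA4 and the complement genes C3, C1R, C1S, CFI, SERPING1 and CD46 were examined in HK-2 cells, an immortalized line of human kidney proximal tubular epithelial cells, with or without TGF-β1. These 9 genes, of 41497 named entries in the count tables, were chosen from the fall of SAA2 in this same comparison, together with its gene family and complement genes, so their values are a description of these libraries and carry no test. The series held 3 untreated control libraries and 3 TGF-β1 libraries of wild-type cells, all taken at 24 hours, and no other agent was listed. Per the labels, the medium held fetal bovine serum, whereas the methods of the study describe TGF-β treatment without serum. Of the 9 genes, 8 had enough reads to be among the 14860 entries tested, and SERPING1 did not.

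SAA proteins are small apolipoproteins of high-density lipoprotein. SAA1 and SAA2 are the acute phase forms, made mainly by the liver and also by epithelia when cytokines such as interleukin-1, interleukin-6 and tumor necrosis factor act through NF-κB, STAT3 and C/EBP factors, whereas SAA4 is expressed constitutively in liver. Complement is a cascade of serum proteins in which C1r and C1s, the proteases of the C1 complex, start the classical pathway, and all pathways meet at C3. Factor I (CFI) cuts activated C3 with the help of cofactors such as CD46 on the cell surface, and C1 inhibitor (SERPING1) blocks C1r and C1s. Kidney tubular epithelium is a known local source of C3.

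SAA1 and SAA2 encode near-identical proteins, so a short read can match both genes. Their coding sequences in GENCODE v29 (GRCh38, chromosome 11) are both 369 bases long and differ at 11 bases, which makes them 97.0% identical, and the longest run without a difference spans 186 bases. The first 300 coding bases are shown 5′ to 3′, with the 9 bases that differ between the genes in capitals.
SAA1: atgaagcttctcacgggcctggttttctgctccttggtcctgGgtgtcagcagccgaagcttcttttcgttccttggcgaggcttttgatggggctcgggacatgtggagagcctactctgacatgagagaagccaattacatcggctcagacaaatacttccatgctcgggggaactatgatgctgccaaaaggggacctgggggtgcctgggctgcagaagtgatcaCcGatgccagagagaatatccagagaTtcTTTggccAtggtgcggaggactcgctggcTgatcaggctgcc
SAA2: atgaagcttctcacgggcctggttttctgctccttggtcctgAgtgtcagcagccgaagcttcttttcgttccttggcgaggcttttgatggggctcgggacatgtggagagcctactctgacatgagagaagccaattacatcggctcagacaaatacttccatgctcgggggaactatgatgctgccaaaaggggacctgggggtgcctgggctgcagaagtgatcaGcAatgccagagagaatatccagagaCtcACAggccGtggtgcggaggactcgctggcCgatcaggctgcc
Of the 220 windows of 150 bases in the coding sequence, 37 (16.8%) were the same in both genes. SAA4 was more distant, at 69.5% identity to SAA1 and 69.2% to SAA2 over 393 aligned columns. The genes lie together on chromosome 11. SAA2 (chr11:18238236-18248668, minus strand) and SAA1 (chr11:18266264-18269967, plus strand) have their listed starts 17596 bases apart and are read away from each other, and SAA4 (chr11:18231355-18236802, minus strand) follows 1434 bases after the end of SAA2. Because of the shared sequence, SAA1 and SAA2 were also summed.

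The libraries held 21.9 to 26.9 megacounts (M). No replicate pair agreed within sampling noise, with a chi-square per gene of 4.33 to 5.93 among control libraries, 4.35 between TGF-β1 replicates 2 and 3, and 16.9 to 18.2 between TGF-β1 replicate 1 and the other two. Of 5 epithelial markers, KRT8 and KRT18 were abundant and called higher with TGF-β1 (log2 fold changes 0.65 and 0.58), KRT19 and EPCAM were called lower (-1.34 and -1.25), and CDH1 had 6 reads in the control and 3 in the TGF-β1 libraries. The proximal tubule transporters LRP2 and SLC22A6 had no reads. The summed level of 11 proximal tubule markers, carried by PAX8 and GGT1, ranged from 313 to 347 CPM (TMM-scaled counts per megacount) in control libraries and from 196 to 228 CPM in TGF-β1 libraries. The hepatocyte markers ALB, APOA1, TTR and APOB summed to 0 CPM in every control library and to at most 0.0384 CPM in a TGF-β1 library. The labels do not say that the libraries came from separate cultures, so the p values given for other genes measure only the spread between these libraries.

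SAA2 had the most reads of the SAA genes and the largest fitted fall of the 9 genes with all libraries included. SAA1 had the larger fall without TGF-β1 replicate 3. SAA2 had 51.2, 49.9 and 59.7 CPM in the control libraries and 4.76, 4.80 and 5.73 CPM in the TGF-β1 libraries. The groups were far apart, and no TGF-β1 library came near the lowest control library. The means were 53.6 ± 5.30 and 5.10 ± 0.549 CPM (SD, n = 3), a log2 fold change of -3.40 ± 0.10 (SE), or 10.5-fold lower with TGF-β1. Beside the 10597 other tested genes that averaged 5 CPM or more, this was the fall of rank 6. In total RNA from a culture, fewer cells that express a gene and less RNA per cell cannot be told apart.

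SAA1, the other acute phase form, was present at a lower level and with more spread. It had 4.39, 2.25 and 4.43 CPM in the control libraries and 0.269, 0.331 and 0.907 CPM in the TGF-β1 libraries. All TGF-β1 libraries were below all control libraries, and the log2 fold change was -2.90 ± 0.47. In reads, SAA1 had 99, 55 and 104 in control libraries and 7, 8 and 19 with TGF-β1, so the treated level rests on few reads. Without TGF-β1 replicate 3 the value was -3.60 for SAA1 and -3.49 for SAA2, which reverses their order.

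The sum of the pair followed SAA2, which supplied most of its reads. The sum of SAA1 and SAA2 was 55.6, 52.2 and 64.1 CPM in control libraries and 5.03, 5.13 and 6.64 CPM with TGF-β1. Its log2 fold change was -3.36 ± 0.12, or 10.3-fold lower. SAA2 supplied 92.1%, 95.7% and 93.1% of the reads of the pair in the control libraries and 94.7%, 93.5% and 86.3% in the TGF-β1 libraries. A wrong assignment of reads between SAA1 and SAA2 would leave this sum as it is, although reads that matched both genes and were discarded would be missing from it.

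SAA4, the constitutive form, was low in HK-2 cells and was also lower with TGF-β1. It had 2.17, 2.49 and 2.26 CPM in control libraries and 0.192, 0.290 and 0.477 CPM in TGF-β1 libraries, with a log2 fold change of -2.87 ± 0.28. These levels correspond to 49, 61 and 53 reads against 5, 7 and 10, and the groups did not overlap. The annotation also lists a read-through gene, SAA2-SAA4, which had 0 reads in every library although it covers 544 of the 630 exonic bases of SAA4 and 300 of the 2470 of SAA2. How reads in shared exons were assigned is not given in the sources used here, and its part in the levels of SAA4 and SAA2 was not tested. Only 86 bases of SAA4 were free of this overlap, against 2170 bases of SAA2.

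**Figure D1:**
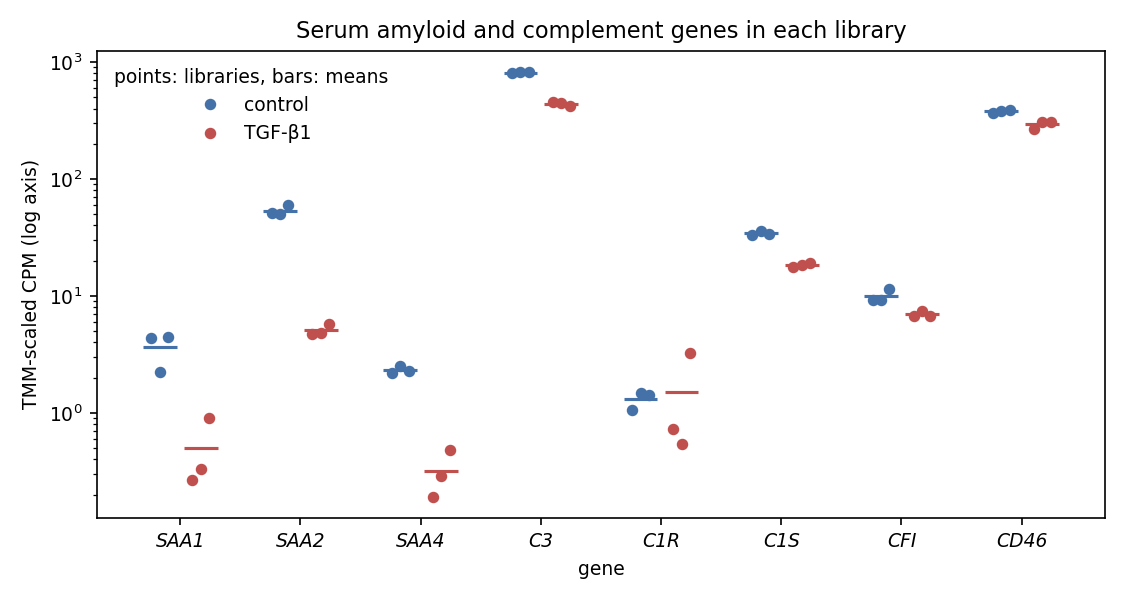
TMM-scaled CPM (log axis) of 8 genes in the 3 control and 3 TGF-β1 libraries, with points for libraries and bars for group means. SAA2 fell from 53.6 to 5.10 CPM and C3 from 813 to 441 CPM, while the TGF-β1 libraries of C1R spread from 0.538 to 3.25 CPM. SERPING1 had no reads and is not drawn.

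C3, the central component, had the highest level of the 9 genes in both groups. It had 802, 814 and 821 CPM in control libraries and 459, 445 and 419 CPM in TGF-β1 libraries. The spread within each group was small beside the gap between them. The log2 fold change was -0.88 ± 0.05, or 1.84-fold lower. C3 lies at chr19:6677704-6720650 and was covered by 8768 to 19912 reads per library, the most reads of the 9 genes.

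C1S and C1R, which encode the proteases of the C1 complex, lie next to each other on chromosome 12 with their ends 9187 bases apart. C1S (chr12:7060718-7071032) had 33.1, 35.6 and 34.0 CPM in control libraries and 17.8, 18.4 and 19.2 CPM with TGF-β1. Its log2 fold change of -0.89 ± 0.06 was close in size to that of C3, and its groups were well separated. C1R (chr12:7080219-7092445) was near 1 CPM and gave no clear direction. It had 1.06, 1.47 and 1.41 CPM in control libraries and 0.730, 0.538 and 3.25 CPM in TGF-β1 libraries, so TGF-β1 replicates 1 and 2 were below every control library and replicate 3 was above every one. The log2 fold change was 0.16 ± 0.74, and without TGF-β1 replicate 3 it was -1.05 and C1R was called lower. SERPING1 (chr11:57597685-57614848), whose product inhibits these proteases, had 0 reads in each of the 6 libraries. A limit of 3 reads corresponds to 0.115 to 0.143 CPM in a single library and to 0.0212 CPM over all 142 M reads, for counting error only.

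The regulators that inactivate C3 fell less than C3 itself in size, although this difference was not tested. CFI (chr4:109730982-109802040) had 9.22, 9.24 and 11.3 CPM in control libraries and 6.76, 7.49 and 6.78 CPM in TGF-β1 libraries, a log2 fold change of -0.50 ± 0.11. CD46 (chr1:207752038-207795516) had 363, 382 and 388 CPM in control libraries and 267, 305 and 305 CPM with TGF-β1, a log2 fold change of -0.37 ± 0.06. In neither gene did the groups overlap.

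Levels were also compared between genes per length, as TPM, the deposited transcript measure that divides by gene length. In control libraries the order was C3 at 517 ± 15.4, CD46 at 258 ± 13.4, SAA2 at 72.3 ± 8.37 and C1S at 39.0 ± 1.71 TPM, followed by SAA1 at 18.5 ± 6.29, SAA4 at 12.2 ± 0.936, CFI at 12.1 ± 1.70 and C1R at 1.68 ± 0.300 TPM. SAA1, SAA4 and CFI did not differ from each other beyond their spread. In TGF-β1 libraries C3 (258 ± 9.53 TPM) and CD46 (184 ± 18.9 TPM) stayed first, while SAA2, at 6.33 ± 0.760 TPM, stood after C1S (19.4 ± 1.17 TPM) and CFI (7.86 ± 0.640 TPM), every library of SAA2 being below every library of CFI. SAA1 (2.33 ± 1.65 TPM), C1R (1.78 ± 1.80 TPM) and SAA4 (1.56 ± 0.729 TPM) came last and overlapped in spread. The TPM of SAA2 used a length of 2470 bases, whereas its listed transcripts were 323 to 1022 bases long. A shorter length would raise its TPM, so the place of SAA2 in both orders is uncertain. The places of SAA1 and SAA4 are uncertain too. SAA1 shares sequence with SAA2, and SAA4 shares 544 of its 630 exonic bases with the read-through gene SAA2-SAA4.

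Of the 8 genes tested, 7 were called lower with TGF-β1 by the edgeR quasi-likelihood test at an adjusted p under 0.05, C1R was not called, and the groups of 7 did not overlap. Without TGF-β1 replicate 3, C1R was called as well and 8 were lower. Over all tested entries 44.3% were called, 22.2% higher and 22.1% lower, and 55.6% had groups that did not overlap. Because the choice used this comparison, nothing is read from the count. The median log2 fold change of the 8 genes was -0.89, beside 0.01 for all tested entries. Without TGF-β1 replicate 1, which stood apart from the other TGF-β1 libraries, the log2 fold changes were -3.36 for SAA2, -2.60 for SAA1, -2.60 for SAA4, -0.92 for C3, -0.88 for C1S, -0.49 for CFI, -0.32 for CD46 and 0.49 for C1R.

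Part of the reference is listed more than once, on alternate contigs that repeat a region of a chromosome, and reads matching both copies may not be counted. SAA1 and C1R had such a copy, with 1 and 2 reads there against 292 and 193 at the main entry, and the other 7 genes had none. The levels of SAA1 and C1R are uncertain for this reason. The contig that repeats SAA1 also repeats LDHA, where the copy had 4269 reads and the main entry 261.

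Few genes around the SAA genes were called. Within 500 kb of the SAA genes, 25 other named genes were listed and 12 were tested. SERGEF, an exchange factor gene, was called lower (7.21 ± 0.378 to 5.09 ± 0.319 CPM, log2 fold change -0.50 ± 0.11, edgeR adjusted p = 0.0045), and the other 11 were not called. That is 8.33% called, against 44.3% of all tested entries. This share does not show a lack of change, since few reads or large standard errors made a call hard for some neighbors. Their reads over all libraries were as few as 71. The 12 log2 fold changes ranged from -0.70 to 0.89 with a median of 0.02. The neighbors nearest to SAA1, namely HPS5, GTF2H1, LDHA and LDHC, were those with a copy on the alternate contig, and HPS5 (0.75 ± 1.21) and GTF2H1 (0.89 ± 1.06) had large standard errors.

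**Figure D2:**
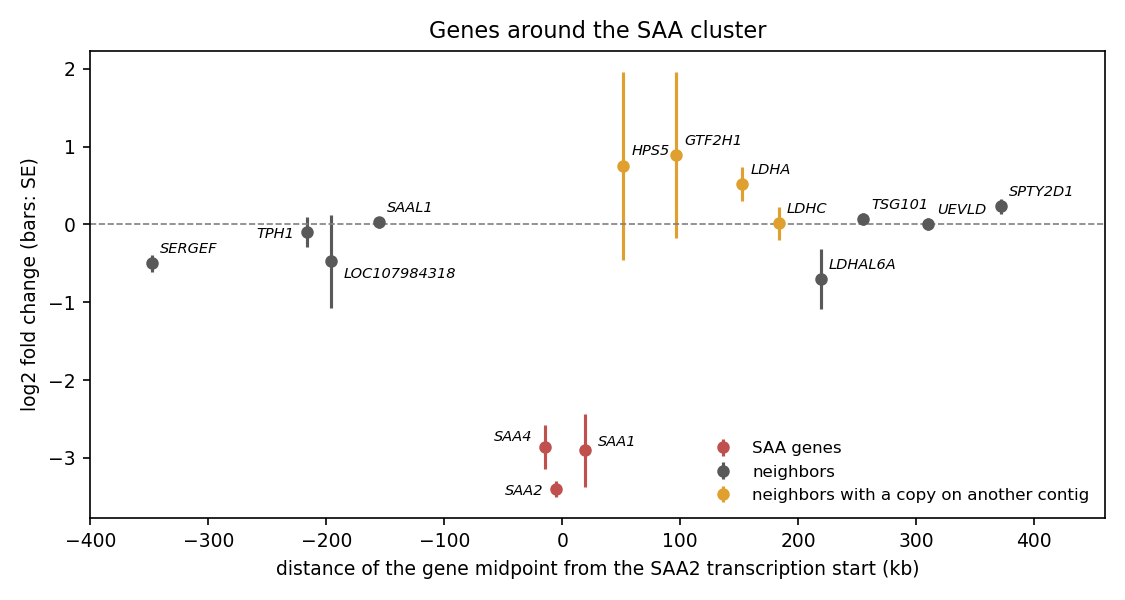
Log2 fold change (TGF-β1 over control, bars show SE) of tested genes within 500 kb of the SAA genes against the distance of the gene midpoint from the start of SAA2, in kb. SAA1, SAA2 and SAA4 lie between -3.40 and -2.87, and the 12 neighbors lie between -0.70 and 0.89.

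Promoter sequence from RefSeq (GRCh38.p14) was matched for SAA4, CFI, CD46 and C1R. The promoter set used held no sequence for SAA1, SAA2, C3, C1S and SERPING1, so these were not matched. The 250 bases before the start of SAA4 are shown because 3 matches to TTNNGCAA, a C/EBP-type motif, lie in them (chr11:18236803-18237052, minus strand, 5′ to 3′, matches in capitals).
SAA4: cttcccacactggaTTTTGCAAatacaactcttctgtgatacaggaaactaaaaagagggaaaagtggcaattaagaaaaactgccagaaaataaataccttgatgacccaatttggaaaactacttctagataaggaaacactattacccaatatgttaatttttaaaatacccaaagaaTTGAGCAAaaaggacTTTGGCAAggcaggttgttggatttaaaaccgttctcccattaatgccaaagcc
The matches began 236, 69 and 54 bases before the start. Of 35116 promoters of this length, 9.05% held at least 1 match on either strand and 0.0541% held 3 or more. The SAA4 window held no match to the NF-κB consensus (present in 5.21% of promoters), the STAT motif TTCNNNGAA (6.57%), the Smad motif CAGAC (38.0%) or TATAAA (6.80%). C1R, with 2 listed starts, had 1 TTNNGCAA and 1 CAGAC match before each of them, and 1 TTCNNNGAA match before one start. Neither CD46 nor CFI had a match to any of these 5 motifs in its window. A match describes letters and is not evidence of binding.

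Genes with profiles most like SAA2 over the 6 libraries were sought among the 10597 that averaged 5 CPM or more, by the Euclidean distance of centered log2 CPM. The nearest was BIRC3, which encodes an inhibitor of apoptosis that is induced by NF-κB, at a distance of 0.304, with 148 ± 8.14 CPM in control and 14.7 ± 2.00 CPM in TGF-β1 libraries. C1orf116 (0.427), SYT16 (0.540) and the ubiquitin ligase gene RNF144B (0.570) followed. RNF144B went from 140 ± 0.773 to 16.4 ± 2.02 CPM. The likeness is mostly that of the size of the fall, since the libraries form 2 groups.

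Outside the 9 genes, most complement genes had few or no reads in HK-2 cells. Of 54 further complement genes, 14 were tested, 40 had too few reads, and 17 of these had no reads at all. With edgeR, 3 of the 14 rose, 5 fell and 6 were not called, with a median log2 fold change of -0.17. That is 57.1% called, against 44.3% of all tested entries. C1QA, C1QC and MBL2, which encode recognition molecules, had no reads. CFB, CFD and CFP, which encode factor B, factor D and properdin of the alternative pathway, had 21, 1 and 18 reads over the control libraries and 12, 0 and 25 over the TGF-β1 libraries, under the filter.

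Among initiating and terminal components, COLEC10, a collectin of the lectin pathway, rose from 8.15 ± 0.918 to 18.5 ± 2.46 CPM (log2 fold change 1.18, edgeR adjusted p = 1.6e-05). C5, whose cleavage starts the membrane attack complex, fell from 4.81 ± 0.792 to 3.13 ± 0.443 CPM (-0.62, adjusted p = 0.012), a call that was lost without control replicate 3 (-0.51). Among soluble regulators, CLU, which encodes clusterin, an inhibitor of the membrane attack complex, rose from 21.9 ± 0.802 to 36.8 ± 4.70 CPM (0.75, adjusted p = 5.4e-05).

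The membrane regulators CD46, CD55 and CD59 did not all move the same way. CD59, which blocks the membrane attack complex, rose from 396 ± 4.48 to 454 ± 5.15 CPM (0.20, adjusted p = 0.0072), and scaling by total counts only took this call away (0.088). CD55, which speeds the decay of convertases, had 67.5 ± 1.09 and 71.7 ± 2.16 CPM and was not called (0.089, adjusted p = 0.20), and with total counts only its value was -0.018. Scaling by total counts only shifted the median of all tested genes by -0.11 and gave 2134 genes higher and 4590 lower, against 3294 and 3288.

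Of 5 complement receptor genes tested, 3 fell, and C3AR1 and C1QBP were not called. That is 60% called, all lower, against 44.3% of all tested entries called and 22.1% lower. C3AR1 had 2.09 ± 0.351 and 1.46 ± 0.159 CPM and was close to the limit (-0.52, edgeR adjusted p = 0.051). C1QBP, which encodes a binding protein of C1q found mainly in mitochondria, had 138 ± 3.36 and 153 ± 14.9 CPM, far above the other 4. ITGAX, the α chain of complement receptor CR4, fell from 3.21 ± 0.172 to 0.717 ± 0.0841 CPM (-2.15, adjusted p = 4.6e-06). ITGB2, its β chain, fell from 14.2 ± 2.07 to 8.57 ± 0.826 CPM (-0.73, adjusted p = 0.00059), and C5AR1, the receptor of C5a, fell from 1.87 ± 0.451 to 0.997 ± 0.0431 CPM (-0.90, adjusted p = 0.0070). ITGAX, ITGB2 and C5AR1 are known from leukocytes. The 5 leukocyte markers summed to 96.3 to 106 CPM in control and 85.3 to 111 CPM in TGF-β1 libraries, nearly all from CD68 and CSF1R. These moved in opposite directions, since CSF1R rose from 4.19 ± 0.182 to 24.6 ± 1.68 CPM (2.55, adjusted p = 4.3e-09) and CD68 fell from 96.7 ± 5.00 to 71.0 ± 12.1 CPM (-0.44, adjusted p = 0.012), while LST1 and TYROBP had no reads. PTPRC, the remaining leukocyte marker, had 2 reads over the control and 2 over the TGF-β1 libraries. The part of the leukocyte markers in the receptor values was not tested.

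**Figure D3:**
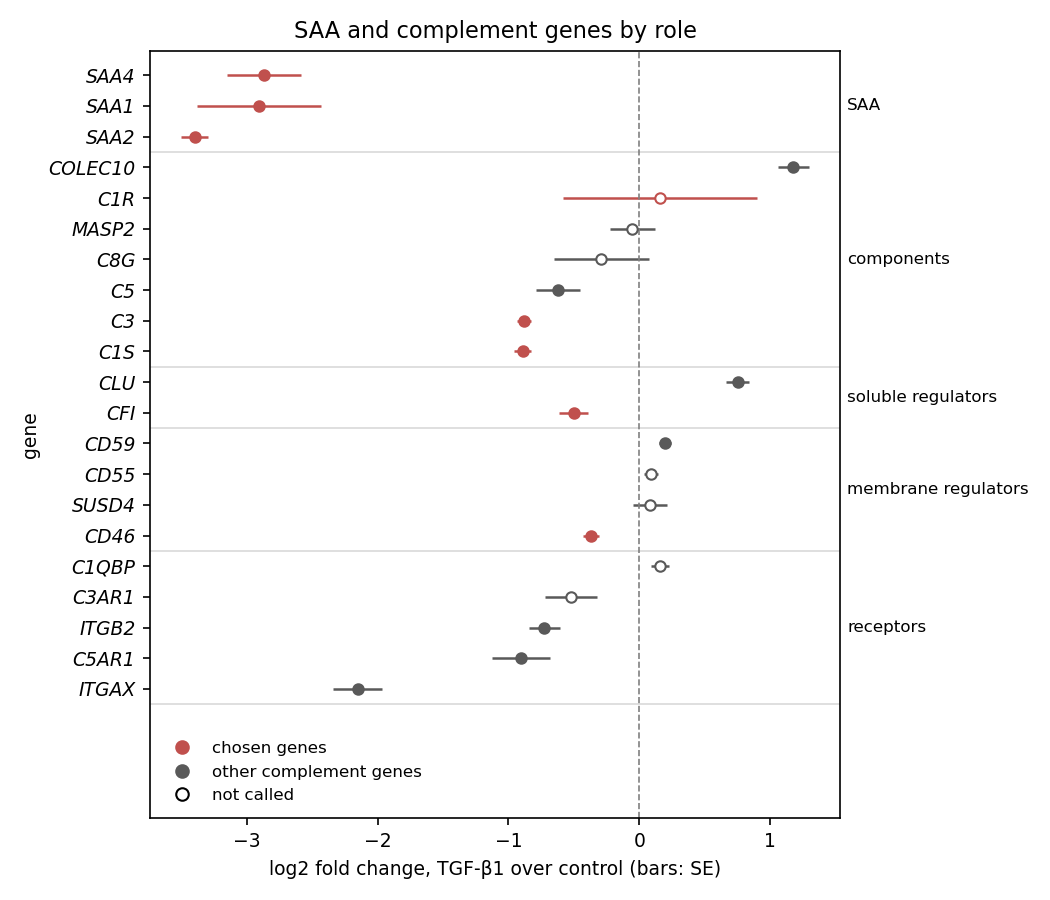
Log2 fold change (TGF-β1 over control, bars show SE) of tested SAA and complement genes by role, with the chosen genes in red. Filled points were called by edgeR and open points were not. The SAA genes lie at -2.87 or lower, C3 and C1S near -0.88, and COLEC10 and CLU lie above 0.

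Other acute phase genes were examined beside SAA. Of 24, 8 were tested, 6 fell, 1 rose and 1, FTL, was not called, with a median log2 fold change of -1.07. That is 87.5% called, 6 of the 7 lower, against 44.3% of all tested entries called and 22.1% lower. PTX3, a long pentraxin, had 19.2, 17.4 and 17.0 CPM in control and 2.50, 2.27 and 2.48 CPM in TGF-β1 libraries (-2.88 ± 0.10, edgeR adjusted p = 5.1e-09). LCN2, the iron-siderophore binder lipocalin-2 and a marker of tubular injury, was abundant, with 572, 606 and 611 CPM against 174, 143 and 137 CPM (-1.98 ± 0.09, adjusted p = 3.3e-08). In both genes the groups were widely separated.

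The other called acute phase genes were lower in level or changed less. CD14, a co-receptor for lipopolysaccharide, fell from 2.55 ± 0.558 to 0.763 ± 0.173 CPM (-1.72, adjusted p = 0.00021). SERPINA1, which encodes α1-antitrypsin, fell by 0.50 on the log2 scale (9.03 ± 1.05 to 6.40 ± 0.752 CPM, adjusted p = 0.0087) and has 1 copy on an alternate contig. FTH1, the ferritin heavy chain, fell by 0.26 (367 ± 19.5 to 306 ± 28.6 CPM, adjusted p = 0.013), a call lost without control replicate 2, TGF-β1 replicate 2 or TGF-β1 replicate 3 (-0.22, -0.22 and -0.23). The gene that rose, FGB, a fibrinogen chain, went from 0.116 ± 0.0942 to 1.19 ± 0.171 CPM (3.33, adjusted p = 9.3e-05), and CP, ceruloplasmin, fell from 0.540 ± 0.0951 to 0.165 ± 0.0949 CPM (-1.65, adjusted p = 0.012). FGB rests on 5, 1 and 2 reads in the control libraries, and its value was 4.14 without control replicate 1. The call of CP was lost with DESeq2 (-1.70) and without control replicate 3 (-1.51), and its value was -2.24 without TGF-β1 replicate 1. FGB and CP were below a mean of 1 CPM and are named after their values were seen. CRP, APCS, HP, ORM2 and HAMP had no reads, and the hepatocyte markers were at or near 0 as given above.

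The cytokines, receptors and transcription factors known to induce SAA changed in both directions. Of 20 such genes 17 were tested, and 6 rose, 7 fell and 4 were not called, with a median log2 fold change of -0.04. The share called was 76.5%, against 44.3% of all tested entries, of which 22.2% were higher and 22.1% lower. IL6R, the ligand-binding chain of the interleukin-6 receptor, had 9.22, 8.71 and 9.29 CPM in control and 1.11, 1.41 and 1.53 CPM in TGF-β1 libraries (-2.75 ± 0.15, adjusted p = 1.1e-07), with no overlap. IL1R1, the signaling receptor of interleukin-1, fell from 14.4 ± 0.736 to 8.20 ± 0.656 CPM (-0.81, adjusted p = 3.8e-05). Its accessory chain IL1RAP rose from 33.3 ± 1.93 to 56.4 ± 1.46 CPM (0.76, adjusted p = 3.0e-06).

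Among the ligands, LIF, an interleukin-6 family cytokine, rose from 145 ± 5.71 to 259 ± 12.2 CPM (0.83, adjusted p = 6.8e-07). IL1A rose from 0.914 ± 0.261 to 1.67 ± 0.0576 CPM (0.87, adjusted p = 0.012), a call that DESeq2 did not make and that was lost without control replicate 2 (0.65). IL6, named after its values were seen, rose from 137 ± 4.24 to 175 ± 13.3 CPM (0.35, adjusted p = 0.00098).

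The C/EBP genes split. CEBPD had 53.0, 60.3 and 58.9 CPM in control libraries and 16.7, 11.2 and 13.0 CPM with TGF-β1 (-2.07 ± 0.13, adjusted p = 4.9e-06), and CEBPA fell from 5.86 ± 1.27 to 1.92 ± 0.203 CPM (-1.60, adjusted p = 4.9e-05). CEBPB rose from 46.4 ± 6.46 to 73.6 ± 2.25 CPM (0.67, adjusted p = 0.00018). The NF-κB subunit genes NFKB1 (0.15, adjusted p = 0.052) and RELA (0.013, adjusted p = 0.93) and the STAT3 gene (-0.12, adjusted p = 0.11) were not called, although these factors act mainly through protein activation, which RNA does not measure. RELA turned to -0.093 with total counts only and was not called under any alternative, whereas STAT3 was called under that scaling (-0.23). NFKB1 was called with all entries with a count (0.16), with entries of a name summed (0.16), with the replicate block (0.16) and in the fits that dropped the first control library (0.20) or the first TGF-β1 library (0.15). Of 7 reported SAA receptors 2 were tested, and TLR2, a toll-like receptor, fell from 45.7 ± 1.98 to 18.2 ± 0.887 CPM (-1.33, adjusted p = 5.9e-08), while SCARB1, a lipoprotein receptor, was not called (0.03, adjusted p = 0.77).

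**Figure D4:**
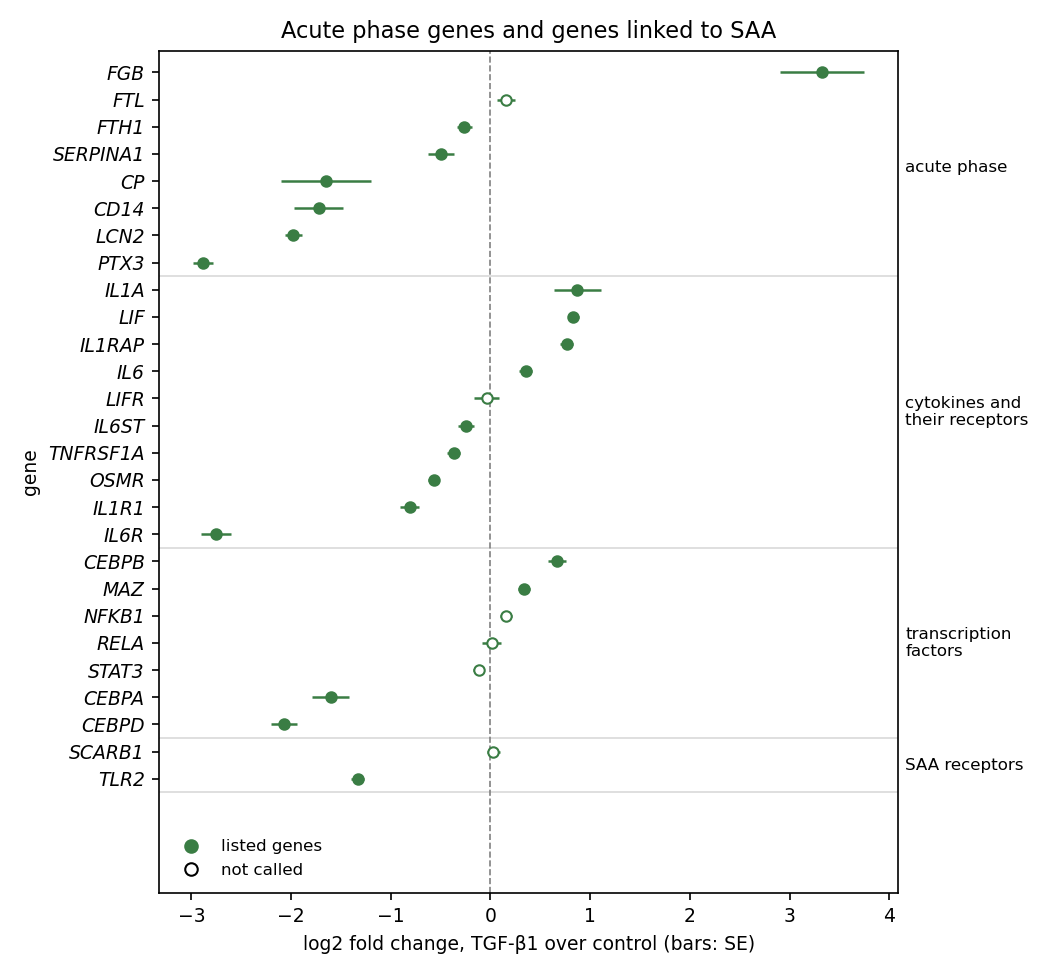
Log2 fold change (TGF-β1 over control, bars show SE) of the tested acute phase genes, SAA inducers and reported SAA receptors. Filled points were called by edgeR and open points were not. PTX3 (-2.88), IL6R (-2.75), CEBPD (-2.07) and LCN2 (-1.98) lie far below 0, while CEBPB (0.67), LIF (0.83) and FGB (3.33) lie above it.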

How the data were processed

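RNA-seq of HK-2 cells was deposited as 1 table per library. The authors counted reads per gene with featureCounts 2.0.1 on hg38, according to the submitters' processing notes, which also name CASAVA and DESeq2 1.16.1. The aligner, annotation release and counting options are not given in the sources used here. The deposited counts were used for all tests, the deposited TPM for levels between genes per length, and the deposited FPKM only to check gene lengths.

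Each table listed 42095 entries, after 7 broken records were rejoined. The 598 unnamed entries, with 0.396% to 0.464% of the counts, were left out. Genes were kept with filterByExpr (minimum count 10). Counts were scaled with TMM, and 3 control and 3 TGF-β1 libraries were compared with the two-sided edgeR 4.0.16 quasi-likelihood test in R 4.3.3, with Benjamini-Hochberg adjustment over 14860 entries. Calls were made at an adjusted p under 0.05. Likeness to SAA2 was taken on log2 CPM (prior count 2). The test was run on simulated data first.

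The genes and lists were chosen with earlier results of these data known. Per list, names went to called genes averaging 1 CPM or more, up to the 8 largest changes, with exceptions stated. Some genes this rule gives are not reported here. Alternatives were DESeq2 1.42.0, limma-voom (limma 3.58.1), RLE size factors, total counts only, all entries with a count, a mean of at least 50 counts, entries of a name summed, the replicate number as a block, and each library left out in turn.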

Additional observations from a re-analysis of the deposited data

How the results depend on the processing

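SAA2, SAA1, SAA4, C3, C1S, CFI and CD46 were lower under every alternative run. Their log2 fold changes ranged from -3.51 to -3.31 for SAA2, -3.60 to -2.60 for SAA1, -3.25 to -2.60 for SAA4, -0.99 to -0.85 for C3, -0.999 to -0.863 for C1S, -0.61 to -0.40 for CFI and -0.48 to -0.32 for CD46. The sum of SAA1 and SAA2 ranged from -3.50 to -3.27. SAA1, SAA4 and C1R had no value at a mean of at least 50 counts. C1R turned from 0.16 to -0.33 with limma-voom, -0.094 with the replicate block and -1.05 without TGF-β1 replicate 3, and leaving out single libraries gave -1.05 to 0.56. CD55 turned from 0.089 to -0.018 with total counts only. RELA turned from 0.013 to -0.093 with total counts only and -0.0084 at a mean of at least 50 counts, and ranged from -0.090 to 0.089 over single libraries left out, being below 0 in the fits that dropped the third control library (-0.052) or the first TGF-β1 library. C1R was called lower without TGF-β1 replicate 3, which made 8 genes lower instead of 7, and was not called otherwise. CD55 and RELA were not called under any alternative, and the cause was not tested.

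Of the counts, neighbors of the SAA genes called higher went from 0 to 1 with all entries with a count, with entries of a name summed and with the replicate block, and was 0 to 2 over fits lacking a single library. At a mean of at least 50 counts, which tested fewer genes, 3 further complement genes were lower instead of 5 and 0 acute phase genes were higher instead of 1. Replicate numbers did not pair the samples (correlations of 0.11, -0.01 and 0.08), and with the replicate block the sum of SAA1 and SAA2 was -3.36, with 3396 genes higher and 3394 lower overall. Depth limits SAA1 and SAA4 most, with 5 to 19 reads of SAA1 or SAA4 per TGF-β1 library. C1R was also low, with 19, 13 and 68 reads in these libraries, and the cause of its spread was not tested.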
